A study of Homo sapiens with 12 samples.

Results

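The comparison described here set 2 libraries of an NFE2L1 knockout line of A549 cells, called KO2, against 2 libraries of the control line, with both lines given bortezomib. These are 4 of the 12 libraries of the study. A549 is an established human lung carcinoma line, and bortezomib is a proteasome inhibitor. The labels give the genotypes as Control1, NFE2L1 KO1 and NFE2L1 KO2, and the treatments as DMSO vehicle or bortezomib (200 nM, 4 h). Each of the 6 groups has 2 libraries. The labels do not say whether a line is 1 clone or which part of NFE2L1 was altered. Nor do they say whether the 2 libraries of a group came from separate cultures. The p-values measure the spread left over all 12 libraries once group means and the replicate difference that all groups share are removed. That spread may be technical, and the shared part of the difference between the 2 libraries of a group is not in it. The libraries were paired by the suffix of their titles: KO2 R2 with control R2 (the R2 pair), and KO2 R1 with the control library that has no suffix (the first pair). Of 58676 genes in the table, 12194 were compared, namely those whose FPKM averaged 1 or more across the whole study. FPKM counts fragments per kilobase of gene, scaled to the reads assigned to genes.

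NFE2L1 (also called NRF1) is a transcription factor of the cap'n'collar family, related to NFE2L2 (NRF2). It is made as a protein of the endoplasmic reticulum, drawn out by the p97 machinery and normally destroyed by the proteasome. When the proteasome is inhibited it is cut, enters the nucleus with a small MAF partner and acts at antioxidant response elements, many of them at genes of proteasome subunits. The comparison asks what differs between the knockout line and the control line while that response is under way.

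The 4 libraries held 14067074 to 22092106 assigned reads, and 3 reads in a gene of 1 kilobase correspond to an FPKM of 0.136 to 0.213 in them. Reads of mitochondrial genes took 6.80% and 15.61% in the control libraries and 5.44% and 14.38% in the KO2 libraries, so the 2 pairs differed in this share by more than the lines did. Epithelial marker genes of A549 summed to an FPKM of 560 to 1094 in the control libraries and 1388 to 1878 in the KO2 libraries. Immune markers summed to at most 0.60, with CD3E at 0 in the 4 libraries. The 5 endothelial markers summed to at most 0.125, with KDR at 0. Fibroblast markers summed to 6.23 to 10.9 in control and 11.6 to 24.3 in KO2, nearly all of it COL1A1, which itself was not called (adjusted p = 0.268). The part of these differences in the results was not tested.

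NFE2L1 itself (ENSG00000082641, chromosome 17, 48048329 to 48061487, plus strand, positions as deposited, which match GRCh38) was lower in KO2. Its FPKM was 109 and 189 in the control libraries and 36.7 and 50.8 in the KO2 libraries. Both KO2 libraries were below both control libraries, at 33.7% of control in the first pair and 26.8% in the R2 pair. The log2 fold change was -1.71 (SE 0.17, limma adjusted p = 0.00074), on the log2(FPKM + 1) scale used for every fold change here. In a fit without the replicate pairing as a block the same value had an adjusted p of 0.721. In bortezomib KO1 stood at -2.17 against the same control libraries, and the direct difference of KO2 from KO1 was 0.46 (adjusted p = 0.279). A transcript was thus still counted at this locus, and these values do not show which part of the gene it covers. An unnamed opposite-strand gene whose exons overlap those of NFE2L1 was at 0.

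In all, 789 of the 12194 genes were called, that is, had a Benjamini-Hochberg adjusted p under 0.05 in limma with the replicate pairing as a block (6.47%). Of these, 419 were higher in KO2 (3.44%) and 370 lower (3.03%). A change of at least 1 on the log2 scale was reached by 286 called genes (2.35%), 164 higher and 122 lower. The median size of the log2 fold change was 0.88 over the called genes and 0.21 over all genes tested. For 617 of the called genes (78.2%) the KO2 libraries lay wholly above or below the control libraries, against 23.1% of all genes tested. The block decides most calls. Without it 8 genes were called (0.0656%), which were SPARC, CES1, ADGRL2 and LINC01468 as higher and CPS1, NPTX1, GPC6 and ADAMTS12 as lower, and all 8 were among the 789. Of the genes tested, 477 had an unadjusted p under 0.05 without the block and 2678 with it.

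The 10 largest rises and 10 largest falls were taken among called genes without overlap between the lines, with clone names left out. The rises included several genes that the control line expressed at an FPKM near or under 1. CEACAM6, an adhesion glycoprotein of epithelial cells, had an FPKM of 0.536 and 2.16 in control and 20.2 and 200 in KO2. Its log2 fold change was 4.89 (SE 0.57, limma adjusted p = 0.00137), and the KO2 libraries differed from each other by more than the control libraries did. In such bulk RNA, a change in the number of cells that express a gene and a change in RNA per cell cannot be told apart. CES1 (chromosome 16, 55802851 to 55833337), a carboxylesterase that hydrolyses drugs and lipids, went from 0.557 and 0.615 to 15.997 and 33.8 FPKM, which is 28.7-fold in the first pair and 55.0-fold in the R2 pair. SPARC (chromosome 5, 151661096 to 151687165), a secreted matricellular protein, went from 0.471 and 0.660 to 10.5 and 13.7 FPKM. Its folds of 22.2 and 20.7 were nearly alike in the pairs, and its adjusted p of 4.28e-05 (limma, log2 fold change 3.05) was the smallest among the 20 largest changes.

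DPYSL3, a cytoskeletal regulator best known from neurons, had 0.953 and 0.682 FPKM in control and 14.4 and 8.67 in KO2. The epithelial keratin KRT19 rose from 14.2 and 8.12 to 77.4 and 79.3 FPKM. ADGRL2, an adhesion receptor of the latrophilin family, rose from 1.66 and 1.89 to 13.7 and 16.01. For these genes the log2 fold changes were 2.75, 2.75 and 2.51. MMP7, a secreted matrix protease, had 2.78 and 16.7 FPKM in control and 22.2 and 78.1 in KO2, so that its R2 libraries were the higher ones in both lines. GPX2, a glutathione peroxidase, rose from 14.5 and 23.7 to 81.5 and 122. EMB, a membrane partner of lactate transporters, rose from 0.0676 and 0.111 to 4.44 and 4.49. The long non-coding RNA LINC01468 was at 0 and 0.0902 in control, and at 3.17 and 5.65 in KO2. The 10 largest rises had limma adjusted p-values of 0.00319 or below.

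The largest falls were led by CPS1 (chromosome 2, 210477682 to 210679107), the mitochondrial enzyme that feeds ammonia into the urea cycle. Its FPKM was 15.8 and 30.1 in control and 0.259 and 0.321 in KO2, a level 60.9 times lower in the first pair and 93.7 times lower in the R2 pair (log2 fold change -4.15, SE 0.27, limma adjusted p = 0.000118). NPTX1 (chromosome 17, 80467148 to 80477843), a secreted neuronal pentraxin, went from 80.8 and 79.7 to 5.90 and 4.73 FPKM (-3.69). GPC6, a heparan sulfate proteoglycan of the cell surface, went from 5.61 and 7.16 to 0.142 and 0.266 (-2.61). ADAMTS12, a metalloprotease of the ADAMTS family, went from 3.21 and 4.46 to 0.172 and 0.199 (-2.02). In KO2 all 4 of these genes were close to silent or far below control. A lack of overlap between the lines was a condition for naming them among the largest falls.

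ANTXR1 (chromosome 2), a receptor for anthrax toxin that binds collagen, fell from 95.2 and 86.0 to 19.1 and 16.5 FPKM. SUSD2, a membrane protein with a sushi domain, fell from 15.7 and 18.7 to 2.52 and 4.72. The complement protease gene C1S fell from 33.4 and 53.5 to 8.51 and 11.1. Its exons overlap those of EMG1 on the same strand, so its reads may be shared with that gene and its value is uncertain. HHIPL2 fell from 16.9 and 30.5 to 3.94 and 7.56, and GPX3, a secreted glutathione peroxidase, from 22.5 and 31.4 to 6.39 and 7.03. CDH4, a classical cadherin, fell from 8.53 and 7.85 to 1.92 and 1.28. It is the 1 gene of these 20 whose call did not hold in each fit that left out 1 of the 4 libraries (highest adjusted p = 0.0603, log2 fold change -1.93 to -1.73). The glutathione peroxidases GPX2 and GPX3 thus changed in opposite directions.

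**Figure D1:**
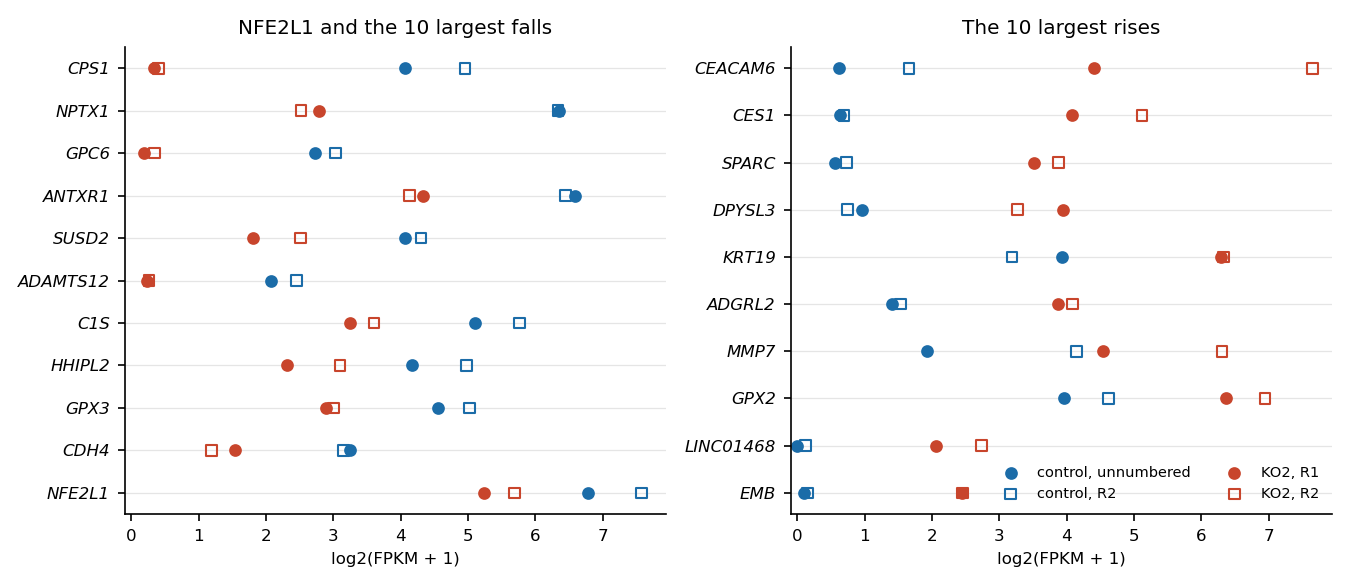
Expression, as log2(FPKM + 1), of NFE2L1 and the 10 largest falls (left) and the 10 largest rises (right) in the 4 bortezomib libraries. Each symbol is 1 library, circles for the first pair and squares for the R2 pair. The 10 falls and 10 rises were picked among genes whose KO2 and control libraries do not overlap, so that separation was fixed by the choice. NFE2L1 was not picked that way and is separated too. CEACAM6 shows the widest gap between KO2 libraries (20.2 and 200 FPKM).

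The called genes were unevenly spread over the chromosomes. Of 680 genes tested on chromosome 12, 109 were called higher (16.03%, against 3.44% of all genes) and 7 lower. These 109 were 26.01% of all higher calls, while the chromosome held 5.58% of the genes tested. The median log2 fold change there was 0.35, at 0.34 in the first pair and 0.37 in the R2 pair. On chromosome 2, 65 of 769 genes were called lower (8.45%, against 3.03% of all genes) and 13 higher, with a median of -0.21 (-0.24 and -0.19 in the pairs). On the other chromosomes together 297 of 10745 genes were called higher and 298 lower, with a median of 0.05, and the medians of single nuclear chromosomes other than 2 and 12 lay between -0.01 and 0.11.

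Both shifts ran along the whole chromosome. In bins of 10 Mb that held at least 20 tested genes, all 11 bins of chromosome 12 had a median above 0 (0.25 to 0.47), and all 19 bins of chromosome 2 had one below 0 (-0.33 to -0.10). The 187 such bins elsewhere ranged from -0.14 to 0.25. The vehicle libraries gave medians of 0.39 on chromosome 12 and -0.23 on chromosome 2. They enter the spread behind the calls, but not the log2 fold changes in bortezomib. In bortezomib KO1 was at 0.39 and -0.30 against the same control libraries, and the direct difference of KO2 from KO1 had medians of -0.02 and 0.11. The number of chromosome copies in these lines was not measured here, and its part in the calls was not tested. Some called genes went against the trend: C1S lies on chromosome 12 and fell, and FN1 (fibronectin) and EPCAM (an epithelial adhesion protein) lie on chromosome 2 and rose, though the calls of FN1 and EPCAM held in no fit that left out 1 of the 4 libraries. With the genes of both chromosomes left out of the fit, 531 genes were called, 263 higher and 268 lower.

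**Figure D2:**
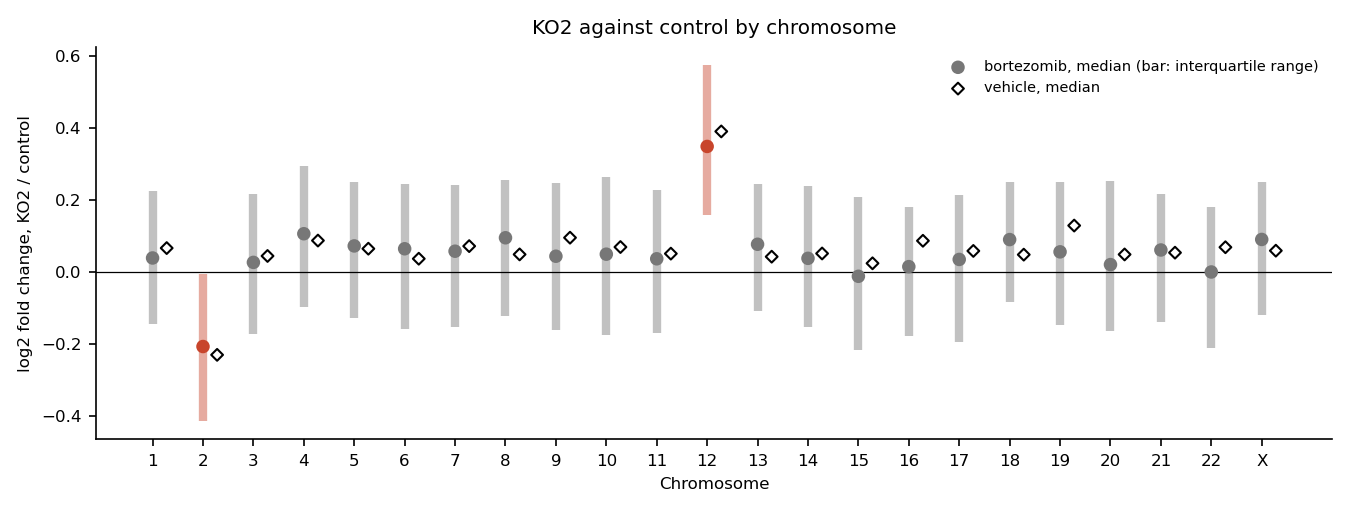
Log2 fold change of KO2 against control for each chromosome. Filled circles are medians over the genes tested in bortezomib, bars span the interquartile range over the genes, and open diamonds are medians in the vehicle libraries. Chromosome 12 lies above the others (median 0.35) and chromosome 2 below (-0.21), with and without the drug.

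Proteasome subunit genes, the best known targets of NFE2L1, had values slightly below control in KO2, and few passed the test. Of the 20S core and 19S cap, 31 subunit genes were tested (PSMA2 and PSMA6 were under the FPKM filter). The log2 fold change was below 0 for 29 of these 31 genes, and for 5364 of all 12194 genes. The subunit genes had a median of -0.28, at -0.35 in the first pair and -0.25 in the R2 pair. The median of all genes was 0.05. Only 2 were called, both lower and both of the cap, which is 2 of 31 against 3.03% of all genes. The count was 0 with FPKM rescaled to a common sum, with the 3-level block and with no FPKM filter, and 5 with quantile normalization and with voom. PSMD12 had 80.8 and 37.8 FPKM in control and 49.1 and 25.8 in KO2 (-0.62, SE 0.15, limma adjusted p = 0.0409), so its lines overlapped and each KO2 library was below its pair. PSMD6 had 21.5 and 14.6 FPKM in control and 14.1 and 9.77 in KO2 (-0.55, limma adjusted p = 0.0487). The lowest value of the set, chosen after its values were seen, was that of the ATPase gene PSMC4, at 285 and 156 FPKM in control and 179 and 103 in KO2 (-0.63, limma adjusted p = 0.0554).

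The cap and the core are described in turn. The 19 cap genes, which recognise and unfold ubiquitinated proteins, had a median of -0.42, with 18 below 0 and 11 at an unadjusted p under 0.05, which 2678 of all 12194 genes reached. The 12 core genes, which form the proteolytic chamber, had a median of -0.25, with 11 below 0 and none at an unadjusted p under 0.05. The core median was -0.04 without KO2 R1, -0.05 without control R2, -0.33 without the unnumbered control library and -0.41 without KO2 R2. Whether core and cap differ was not tested. PSME4, a proteasome activator gene on chromosome 2, was called lower (23.98 and 16.01 FPKM in control, 14.5 and 9.75 in KO2, log2 fold change -0.67, limma adjusted p = 0.0162). It was the 1 called gene of 14 proteasome assembly and activator genes tested, where 3.03% of all genes were called lower. Of these 14 genes, 9 were above 0, as were 6828 of all 12194 genes, and their median was 0.10. Without the block no gene of these sets was called. The median over the 31 subunit genes moved with single libraries: it was -0.09 without KO2 R1, -0.48 without KO2 R2, -0.37 without the unnumbered control library and -0.18 without control R2, and neither PSMD12 nor PSMD6 nor PSME4 was called in any of these 4 fits (adjusted p of 0.0811 or above).

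In the vehicle libraries the median over the same 31 genes was -0.09, with 26 below 0, as were 4894 of all 12194 genes, and none called. The change of the KO2 difference with bortezomib had a median of -0.14 over the 31 genes and was called for none of them. It was below 0 in 24 of the 31 and in 6265 of all 12194 genes. KO1 in bortezomib was at a median of -0.49 against the same control libraries. The direct difference of KO2 from KO1 had a median of 0.20 over these genes and was called for PSMC4 alone (0.84, limma adjusted p = 0.0442), where KO1 had 115 and 49.3 FPKM.

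**Figure D3:**
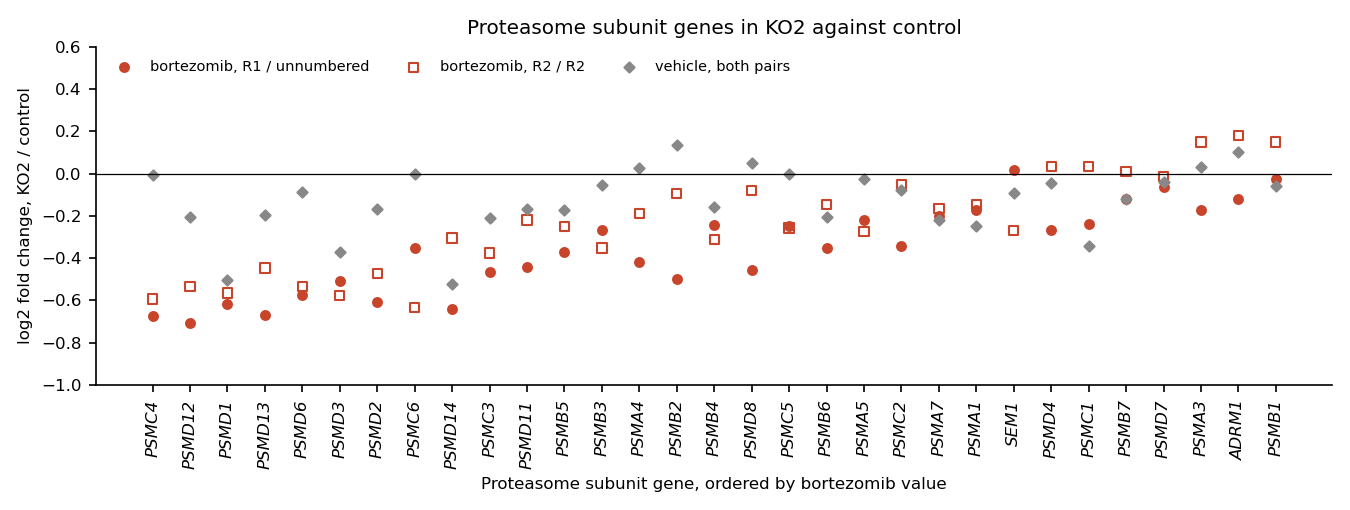
Log2 fold change of KO2 against control for the 31 proteasome subunit genes tested, ordered by their bortezomib value. Circles are the first pair, squares the R2 pair and grey diamonds the vehicle value from both pairs. Most symbols in bortezomib lie below 0, with PSMC4 and PSMD12 lowest (-0.63 and -0.62).

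The promoter windows of PSMD12, PSMC4 and PSMD6 are printed because these are the called subunit genes and the lowest one. Each window runs from 250 bases before the RefSeq start site to 50 bases after it (GRCh38.p14), 5′ to 3′ on the strand of the gene. They lie at chr17:67366528-67366827 (minus strand), chr19:39970915-39971214 (plus strand) and chr3:64023445-64023744 (minus strand). Capitals mark a match to TGACNNNGC, the core of the antioxidant response element, searched on both strands.
PSMD12: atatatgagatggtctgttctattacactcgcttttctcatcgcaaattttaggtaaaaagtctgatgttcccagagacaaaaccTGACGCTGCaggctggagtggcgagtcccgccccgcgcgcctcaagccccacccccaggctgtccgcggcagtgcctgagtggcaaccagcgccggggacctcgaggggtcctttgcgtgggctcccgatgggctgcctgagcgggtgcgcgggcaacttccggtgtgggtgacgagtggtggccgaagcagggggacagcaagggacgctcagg
PSMC4: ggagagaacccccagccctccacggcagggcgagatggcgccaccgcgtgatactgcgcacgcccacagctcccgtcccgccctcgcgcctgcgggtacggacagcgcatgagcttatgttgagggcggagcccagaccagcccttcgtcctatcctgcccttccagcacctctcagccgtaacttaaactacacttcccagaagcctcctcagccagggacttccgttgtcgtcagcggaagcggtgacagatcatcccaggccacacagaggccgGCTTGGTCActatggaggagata
PSMD6: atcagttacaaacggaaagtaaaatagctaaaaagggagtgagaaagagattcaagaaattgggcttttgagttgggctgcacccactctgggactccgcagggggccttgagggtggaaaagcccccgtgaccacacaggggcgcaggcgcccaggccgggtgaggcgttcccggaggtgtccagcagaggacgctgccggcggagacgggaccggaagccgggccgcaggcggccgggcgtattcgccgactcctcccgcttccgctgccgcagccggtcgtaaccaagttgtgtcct
PSMD12 has its match at offset -165 from the start site, and PSMC4 has one on the opposite strand at offset 27, after the start site. The PSMD6 window holds no match to these letters. The motif was in 9 of the 26 subunit windows that matched by symbol (34.6%), against 13.3% of all 35116 RefSeq windows and 19.5% of the 8475 windows of genes tested. It was in 19.5% of the 287 windows of genes called higher and in 25.5% of the 263 windows of genes called lower. Among the subunit genes the median log2 fold change was -0.31 with a match and -0.30 without one. A match is a string of letters and not a measured binding site.

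Genes of the steps that make and activate the NFE2L1 protein, and its relatives, held 3 called members. Of 14 processing genes tested 2 were called lower, against 3.03% of all genes: UBXN4 (74.1 and 84.6 FPKM in control, 42.2 and 44.8 in KO2, -0.85), an endoplasmic reticulum anchor for p97 that lies on chromosome 2, and the p97 cofactor NPLOC4 (92.6 and 87.3 against 54.6 and 53.6, -0.72). Neither call held in a fit that left out any 1 of the 4 libraries (adjusted p of 0.0665 or above). Among 7 cap'n'collar and MAF factors tested, 1 was called higher, against 3.44% of all genes, and the median of the 7 was 0.0006. The called gene was the small MAF gene MAFF, at 4.70 and 4.37 FPKM in control and 9.05 and 7.96 in KO2 (0.78, limma adjusted p = 0.00847). Its call held in 1 of the 4 fits that left out a library (highest adjusted p = 0.104). NFE2L2 was at 0.08 and NFE2L3 at -0.48, and neither was called.

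Of 25 NRF2 target genes, 4 were called higher and 1 lower, against 3.44% and 3.03% of all genes. Their median of 0.09 was 0.33 without KO2 R1 and 0.21 without the unnumbered control library. GPX2 had the largest rise (2.37). ALDH3A1, an aldehyde dehydrogenase, went from 166 and 177 to 510 and 473 FPKM (1.52, limma adjusted p = 0.00074), with an overlapping opposite-strand gene at a mean FPKM of 7.88 over the 12 libraries. AKR1B10, an aldo-keto reductase, went from 865 and 545 to 1499 and 1423 (1.09). The thioredoxin reductase gene TXNRD1, on chromosome 12, went from 256 and 139 to 431 and 245 (0.78). HMOX1, heme oxygenase, went the other way, from 174 and 102 to 49.99 and 49.4 (-1.41, limma adjusted p = 0.0494). The calls of GPX2 and ALDH3A1 held in each fit that left out 1 of the 4 libraries. Those of AKR1B10, TXNRD1 and HMOX1 held in none of these fits.

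Keratin and epithelial junction genes were often higher in KO2. Of 17 tested, 9 were called higher and none lower, against 3.44% of all genes called higher, and the median log2 fold change was 0.59 against 0.05 over all genes. KRT18 went from 166 and 112 to 585 and 488 FPKM (1.96, SE 0.18, limma adjusted p = 0.000471), and its partner KRT8 from 261 and 126 to 582 and 397 (1.40). These keratin genes pair to form the filaments of simple epithelia, and their exons overlap on opposite strands, so reads may be shared between them. KRT80 went from 11.1 and 7.47 to 39.8 and 26.6 FPKM (1.73).

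The junction genes JUP (plakoglobin, 1.16), CLDN4 (a claudin, 1.07), OCLN (occludin, 0.82), DSP (desmoplakin, 0.73) and EPCAM (0.58) were the other called members besides KRT19. For EPCAM the libraries overlapped, at 4.01 and 6.91 FPKM in control and 6.61 and 10.6 in KO2. The keratins most abundant in control did not pass the test: KRT81 had 1893 and 744 FPKM in control and 2025 and 1038 in KO2, and KRT7 had 647 and 304 against 625 and 409. CDH1, the E-cadherin gene, was at 0.06 (adjusted p = 0.884). Of the 17 genes, 6 lie on chromosome 12, among them KRT8, KRT18 and KRT80, and over the 10 genes outside chromosomes 2 and 12 the median was 0.66. The count of 9 was 6 without KO2 R1, 4 without KO2 R2, 5 without the unnumbered control library, 3 without control R2 and 0 without the block.

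**Figure D4:**
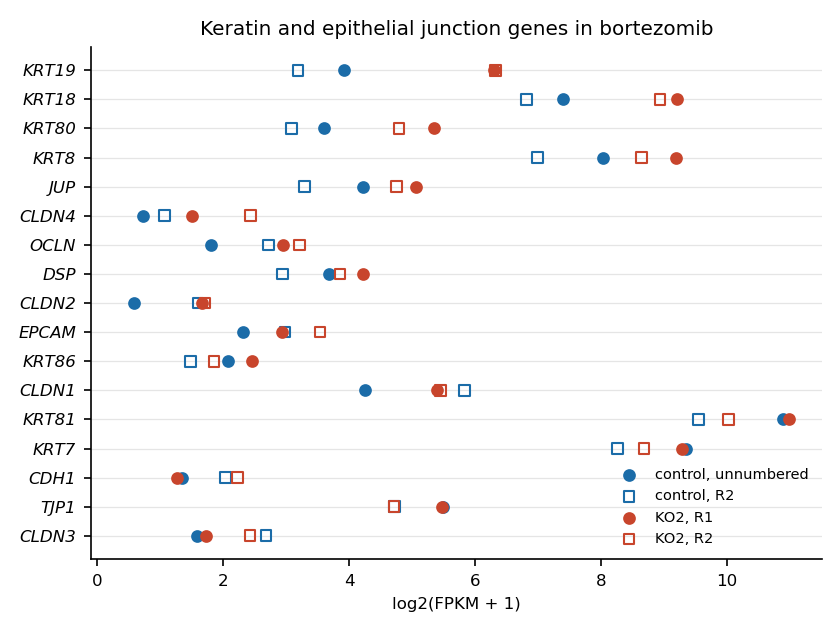
Expression, as log2(FPKM + 1), of the 17 keratin and epithelial junction genes tested in the 4 bortezomib libraries, ordered by log2 fold change. Symbols are single libraries, circles for the first pair and squares for the R2 pair. KRT19, KRT18, KRT80 and KRT8 at the top show both KO2 libraries above both control libraries, while KRT7, KRT81 and CDH1 overlap.

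Genes of adhesion to the matrix changed in both directions. LAMA3, a laminin chain of epithelial basement membranes, went from 8.37 and 13.9 to 3.42 and 3.79 FPKM (-1.36). ITGB4, the hemidesmosome integrin, went from 9.06 and 21.5 to 24.9 and 73.2 (1.54), and the collagen receptor gene ITGA2 from 17.5 and 32.8 to 46.4 and 66.2 (1.18). ITGAV, on chromosome 2, went from 106 and 149 to 72.9 and 88.4 (-0.64). Of 14 mesenchymal genes, SPARC and FN1 were called higher (3.44% of all genes were), FN1 from 21.2 and 36.1 to 34.7 and 75.4 FPKM (0.87), with libraries that overlapped. The calls of ITGB4 and LAMA3 held in each fit that left out 1 of the 4 libraries, ITGA2 held in 1 of these fits, and ITGAV and FN1 in none.

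Nearly all heat shock genes had values above control in KO2, and few were called. Of 23 tested, 22 were above 0, as were 6828 of all 12194 genes, and the median was 0.42 (0.26 without control R2). Of the 23, 2 were called higher and 1 lower, against 3.44% and 3.03% of all genes. FKBP4, an HSP90 co-chaperone on chromosome 12, had 61.5 and 28.5 FPKM in control and 133 and 81.7 in KO2 (1.29, limma adjusted p = 0.00139). HSPB1, the small heat shock protein HSP27, had 571 and 139 against 1018 and 472 (1.29). The factor gene HSF2 had 14.7 and 8.47 against 8.997 and 5.43 (-0.60). HSPA1A was at 1495 and 639 FPKM in control and 1645 and 1045 in KO2 (0.42, adjusted p = 0.454). FKBP4 was called in each fit that left out 1 of the 4 libraries, HSPB1 in 2 of them and HSF2 in none.

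Stress and immediate early genes held a few called members. ATF3, a stress-induced transcription factor, had 11.4 and 5.11 FPKM in control and 24.4 and 21.1 in KO2 (1.44, limma adjusted p = 0.00251). GDF15, a stress cytokine, had 38.4 and 57.2 against 78.7 and 136 (1.12), and SHMT2, a serine hydroxymethyltransferase on chromosome 12, 36.6 and 24.2 against 61.7 and 37.8 (0.68). VLDLR was lower (-0.84). These were 4 of the 26 genes of the ATF4 list, against 6.47% of all genes called. The list had a median of 0.13, which was 0.23 without KO2 R1 and 0.05 without the unnumbered control library. Of 17 immediate early genes, JUN, DUSP6 and DUSP4 were called higher, against 3.44% of all genes. JUN had 20.46 and 16.5 FPKM in control and 46.4 and 37.6 in KO2 (1.14). DUSP6 (1.04) lies on chromosome 12, and DUSP4 was at 0.94. ATF3 was called in each fit that left out 1 of the 4 libraries, VLDLR and JUN in 2, GDF15 and DUSP4 in 1, and SHMT2 and DUSP6 in none.

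Among 13 cytokine and chemokine genes, 3 were called higher and 2 lower, against 3.44% and 3.03% of all genes. The neutrophil chemokine gene CXCL3 had 2.15 and 4.02 FPKM in control and 7.94 and 10.5 in KO2 (1.35), and IL18 and LIF were at 0.73 and 0.71. CSF1, the macrophage growth factor, had 20.4 and 47.7 against 6.11 and 14.1 (-1.64, limma adjusted p = 0.000561). TGFB1 had 49.1 and 55.1 against 28.7 and 37.9 (-0.64), and its exons overlap those of HNRNPUL1 on the opposite strand. CSF1 alone of these 5 was called in each fit that left out 1 of the 4 libraries, and the other 4 were called in none.

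No gene was called among 21 endoplasmic reticulum folding genes, 16 iron and ferroptosis genes, 12 autophagy genes, 12 ubiquitin genes and 13 mitochondrially encoded genes. Over these lists 3, 3, 1, 5 and 0 genes in turn had an unadjusted p under 0.05. Over all 12194 genes 2678 did and 6.47% were called, so a count of 0 in lists of this size is no result about them.

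The vehicle libraries gave a second look at the same lines without the drug. Both comparisons came from 1 fit that gives each gene a single estimate of spread, so the calls in the 2 conditions are not independent. There 596 of 12194 genes were called for KO2 against control (4.89%), 333 higher and 263 lower. In both conditions 334 genes were called, which is 42.3% of the bortezomib calls and 56.0% of the vehicle calls, and 333 of them changed in the same direction (187 higher and 146 lower). Of the 789 bortezomib calls, 729 (92.4%) had the same sign in vehicle. Genes are not independent replicates. Across them the log2 fold changes, each from both pairs, correlated at r = 0.62 between the conditions. With chromosomes 2 and 12 left out r was 0.59. The 2 pairs within bortezomib also correlated at 0.59, but each of these is 1 library against 1, so this value is not comparable with the 0.62. All 20 of the largest changes were also called in vehicle: CPS1 was at -5.19, NPTX1 at -4.76, CEACAM6 at 6.21 and CES1 at 4.40.

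The test of the difference between the conditions called no gene (0%) in limma, with a smallest adjusted p of 0.292 and 811 genes at an unadjusted p under 0.05. The method voom on recovered reads called 4 genes, and limma without the FPKM filter called 5. Genes called in bortezomib alone are therefore not shown to depend on the drug. ATF3 was at 1.44 in bortezomib and 0.13 in vehicle (adjusted p of the difference = 0.298), CXCL3 at 1.35 and -0.50 (0.298), KRT80 at 1.73 and 0.50 (0.322), and MAFF at 0.78 and -0.05 (0.35). JUN was at 1.14 and -0.11, and NPLOC4 at -0.72 and 0.03. In vehicle ATF3 had an FPKM of 0.644 and 0.291 in control and 0.701 and 0.501 in KO2. MAFF had 0.987 and 0.781 against 1.01 and 0.638. The pseudocount of 1 understates changes at such low levels.

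**Figure D5:**
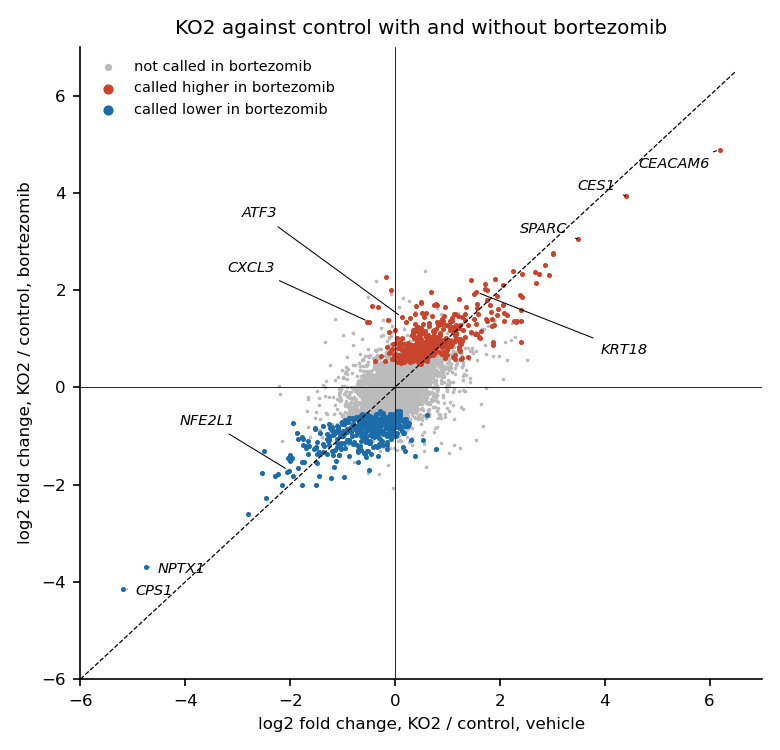
Log2 fold change of KO2 against control in vehicle (horizontal) and bortezomib (vertical) for the genes tested, those on chromosome Y left out. Colours mark genes called in bortezomib and the dashed line marks equal values. The largest changes (CEACAM6, CES1, SPARC, CPS1, NPTX1) have the same sign in both conditions, with CEACAM6 at 6.21 in vehicle and 4.89 in bortezomib, while ATF3 and CXCL3 are at 0.13 and -0.50 in vehicle. The FPKM of ATF3 is 0.291 to 0.701 in the vehicle libraries of control and KO2, where the pseudocount of 1 understates changes.

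The direct comparison of KO2 with KO1 in bortezomib called 180 genes (1.48%), 104 higher and 76 lower in KO2. Of the 20 largest changes, 7 were called in it, though these 20 were picked on the same KO2 libraries, which favours such calls. CES1 and SPARC were higher in KO2 than in KO1 by 4.46 and 3.27 on the log2 scale, with KO1 at -0.52 and -0.22 against the same control libraries. CPS1 in KO1 was at -4.46, KRT19 at 2.73 and ANTXR1 at -2.16, and their differences between the knockout lines were 0.31, 0.02 and -0.13, with adjusted p of 0.778, 0.988 and 0.934.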

How the data were processed

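RNA was isolated with column kits and reverse transcribed from random hexamers, per the labels' protocols. The authors' deposited values are FPKM, 1 column per library. The submitters' processing notes name CASAVA, STAR 2.5, HTSeq 0.6.1, DESeq2 and the build hg19, with no roles. The deposited gene positions, however, equal those of GENCODE 29 (GRCh38) for 95.3% of the 58676 IDs. The strand setting is not given in the sources used here. FPKM times length gave whole reads (within 0.01) for 100% of values, from 13211608 to 23819258 per library.

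The members, gene lists and tests were chosen with earlier results of these data known. limma 3.58.1 (R 4.3.3; lmFit, contrasts.fit, eBayes with trend) was fitted on log2(FPKM + 1) over the 12 libraries, with 6 group means and a replicate block (R2 against R1 or no suffix), which leaves 5 residual degrees of freedom. The pseudocount of 1 understates changes of low genes. Genes averaging an FPKM of 1 or more were tested, and called at an adjusted p under 0.05. The block rests on the suffix and on the replicate differences, whose correlation between groups was 0.70 to 0.89 over 15 pairs of groups (0.81 for KO2 and control in bortezomib). An exact permutation test of 2 against 2 cannot go below 0.333. The rule for named genes took NFE2L1, the 10 largest rises and 10 largest falls without overlap, and of each of 30 lists up to 4 called genes per direction. Results for some listed genes are not reported here. Alternatives covered the block, pseudocount, filter, scaling, voom and single libraries. The fit was tested on simulated data. Python 3.11.15 was used for tables.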

Additional observations from a re-analysis of the deposited data

Results flagged for a closer look

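The direct comparison of KO2 with KO1 in bortezomib called 12 of the 65 named genes, against 1.48% of all genes tested. Apart from NFE2L1, the named genes were picked by calls that use the same KO2 libraries, which favours calls here. Higher in KO2 than in KO1 on the log2 scale were CES1 by 4.46 (limma adjusted p = 8.11e-05), SPARC by 3.27 (2.16e-05), CEACAM6 by 2.95 (0.0361), GPX2 by 1.98 (0.0189), FN1 by 1.75 (0.00388), GLUL by 1.40 (0.00336), ADGRL2 by 1.19 (0.00825), ALDH3A1 by 0.93 (0.0179) and KRT18 by 0.92 (0.0346). Lower in KO2 were CXCL3 at -2.50 (0.00236), LINC01468 at -1.42 (0.00793) and GPC6 at -1.31 (0.0072). CXCL3, LINC01468 and GPC6 differed from control in the same direction in both lines, with KO1 at 3.85, 3.76 and -1.30. The sign differed between the lines for FN1 (0.87 in KO2 and -0.89 in KO1), CES1 (3.94 and -0.52), SPARC (3.05 and -0.22) and GLUL (1.27 and -0.12), and of these KO1 values only that of FN1 was called. The groups have 2 libraries each, too few to look for single outlying libraries.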

How the results depend on the processing

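The number of genes called for KO2 against control in bortezomib, 789, became 8 without the replicate block, 485 with no FPKM filter, 1294 with voom, and 215 to 367 when 1 of the 4 libraries was left out, where the lone library of an arm is assumed to vary like the other groups. The other 8 alternatives gave 531 to 948. NFE2L1 kept its value of -1.71 without the block at an adjusted p of 0.721. The vehicle count of 596 became 28 without the block, 329 with no filter and 1062 with voom. The count of 0 for the difference between the conditions became 5 with no filter and 4 with voom. The count of 180 for KO2 against KO1 became 5 without the block, 100 with no filter, 438 with voom, and 45 to 142 with 1 library left out (45 without KO2 R1 and 46 without KO2 R2). The cause of these shifts was not tested. No named gene reversed its direction. Of the 64 named genes besides NFE2L1, 29 kept their call in every alternative that tested them apart from the fit without the block, and 8 of the 29 kept it there too. The filter at a mean FPKM of 5 tested 56 of the 64, and the fit without chromosomes 2 and 12 tested 46. In the 4 fits without 1 library, 29 were called in all, 10 in some and 25 in none. No scaling moved the median of all genes by 0.1 on the log2 scale. With 2 libraries a group, a gene that was not called is not shown to be unchanged.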

Other observations

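Neuronal-type genes, which A549 expresses in part, held 3 called higher and 3 called lower of 15 tested in KO2 against control in bortezomib, where 3.44% of all genes were called higher and 3.03% lower. Beside DPYSL3, NPTX1 and CDH4, the synaptic vesicle gene SYT1 had 4.27 and 8.69 FPKM in control and 15.9 and 28.7 in KO2 (log2 fold change 1.65, limma adjusted p = 0.000233). Its call held in each fit that left out 1 of the 4 libraries, and it lies on chromosome 12. The ephrin gene EFNB2 was at 0.88 and the semaphorin receptor gene NRP2, on chromosome 2, at -0.95, and neither call held in any of these fits. In nitrogen metabolism, GLUL, the glutamine synthetase, had 2.57 and 1.23 FPKM in control and 6.66 and 5.05 in KO2 (1.27, limma adjusted p = 0.00223), while CPS1 fell. The 6 other genes of that list that were tested were not called. Of 21 cell cycle genes 1 was called, the inhibitor CDKN1B on chromosome 12 (0.80), against 6.47% of all genes. The median of the 21 was -0.004, so this count is no result about the list. The call of CDKN1B did not hold in every fit that left out 1 library, where its log2 fold change was 0.57 to 1.03.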
